A study of Hordeum vulgare with 18 samples.

Results

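The comparison set KD-CKX1 5.8, a transgenic barley line with a silenced HvCKX1 gene (line 5.8 below), against the azygous control at BBCH stage 49, when the first awns show. It rests on 6 libraries of the 18 in the series, 3 of line 5.8 and 3 of the control, each made from mRNA of whole spikes of the cultivar Golden Promise. The features were chosen by level alone: a feature entered when it reached at least 10 normalized counts in 3 or more of the 6 libraries. Of 26066 features in the deposited table, 19505 did so, 19371 with identifiers beginning with MLOC and 134 with identifiers beginning with EPlHVUG. Just inside this limit stood MLOC_35257, whose third-highest value was 10.19, and just outside it MLOC_39533, at 9.962.

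Plants of both groups grew in field plots and differ in the labels by genotype, with the transgenic line on one side and the azygous control, which lacks the transgene, on the other. The sources used here give neither the promoter and construct behind the silencing nor whether a library holds spikes of 1 plant or several. Line 5.8 is a single transgenic line, so the silencing itself and any other property of that line cannot be told apart in this comparison. Line 17_10, the other silenced line, and all 3 genotypes at stage 59, the end of heading, serve below as libraries that the comparison did not use, beyond their part in the shared estimate of spread.

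Cytokinins are plant hormones that promote cell division and hold back senescence. Cytokinin oxidase/dehydrogenases, the enzymes that CKX genes encode, break them down irreversibly by cleaving the side chain. In cereals such as rice, lower activity of a CKX gene in the inflorescence has been linked to more grains per panicle. In the spike, stage 49 falls in the time when florets, anthers and awns are growing inside the flag leaf sheath. In RNA from a whole organ, fewer cells of a type and less RNA per cell cannot be told apart.

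Of the 26066 identifiers, 0 were found among the 58438 genes of the barley reference, so HvCKX1 was not analysed here and its silencing was not checked. For the same reason features go by identifier, without functions, sequences or marker lists. The 6 libraries held 48083466 to 106034579 reads each, and 19073 to 19545 features per library reached 10 normalized counts. Replicate 2 stood apart in both groups. In line 5.8 it correlated with replicates 1 and 3 at a mean of 0.904, and it differed at least 4-fold from their mean in 1952 features, against 385 and 685 for replicates 1 and 3. In the control the matching numbers were 843 features for replicate 2, 198 for replicate 1 and 476 for replicate 3. The median SD of log2 values between replicates was 0.33 in line 5.8 and 0.24 in the control.

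Line 5.8 differed from the control in 83 of 19505 features, 60 higher and 23 lower (limma, Benjamini-Hochberg adjusted p below 0.05), which is 0.426% of the features tested, 0.308% higher and 0.118% lower. The higher features changed more, with a median log2 fold change of 4.21 against -1.87 for the lower ones, and 52 of the 60 but 9 of the 23 changed at least 4-fold. Over all 19505 features the median log2 fold change, which the size factors hold near 0, was 0.00 and its median size 0.26. In all 83 called features the libraries of line 5.8 and control did not overlap, and over all 19505 features, the called ones included, the libraries were apart in 1401 that stood higher (7.18%) and 1133 that stood lower (5.81%). An unadjusted p below 0.05 was reached by 2964 features.

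The number of calls rested on the libraries and on the model. Without control replicate 2 it was 756 (544 higher, 212 lower), and all 83 were among them. Without any other library it lay between 63 and 103, and 54 of the 83 were called in each of the 6 fits that left out 1 of the compared libraries. Deviations of same-numbered libraries of the groups correlated at 0.18, 0.42 and 0.45, and those of other pairs at -0.456 to 0.306. Line 5.8 replicate 1 correlated more with control replicate 3 (0.306) than with control replicate 1. The replicate numbers were taken to pair the groups from these same data, and the labels state no pairing, so the block is only an alternative. With the replicate number as a block the count was 1759 (932 higher, 827 lower), again with all 83. In a fit of the 6 libraries alone it was 21 without the block and 0 with it. DESeq2 called 308 and edgeR 75.

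**Figure D1:**
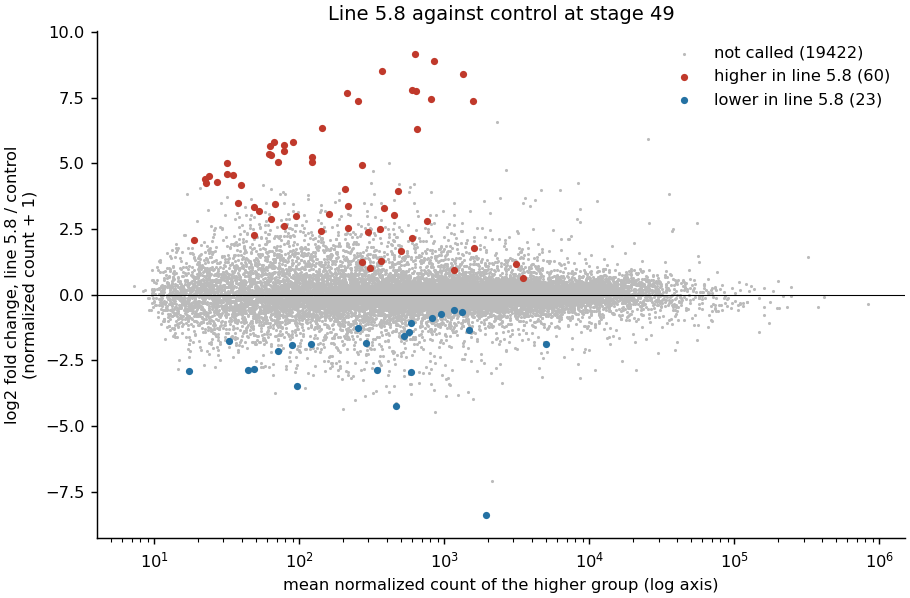
Log2 fold change of line 5.8 over control at stage 49 (vertical axis, on normalized count + 1) against the mean normalized count of the higher group (horizontal log axis) for 19505 features. Red points are the 60 features called higher and blue points the 23 called lower, and grey points passed no threshold. The largest rises lie above 5 log2 units, and 1 called fall lies below -5.

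The largest rises were features nearly or fully silent in the control. MLOC_54756 had 975, 339.3 and 562.2 normalized counts in replicates 1 to 3 of line 5.8 and 0 reads in all 3 control libraries. Against a floor of 3 reads per library it was at least 246-fold higher (limma adjusted p = 2.49e-09). It was on in every library of line 17_10 as well, at 414.6, 446.1 and 462 at stage 49, and the lines did not differ there beyond their spread (limma adjusted p = 0.584). MLOC_53680 had 919, 770.5 and 854.8 in line 5.8 and 2.204, 0.7836 and 0 in the control (log2 change 8.89 with SE 0.66, limma adjusted p = 3.75e-06). It also was on in line 17_10, at 434.3 to 477.3.

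MLOC_26429 belonged to the same kind, with 597.7, 658.3 and 544.6 in line 5.8 against 1.653, 2.351 and 1.209 in the control (log2 change 7.80 with SE 0.45, limma adjusted p = 2.44e-07) and 445.5 to 583 in line 17_10. MLOC_60700 was less even. Its replicate 1 of line 5.8 stood at 73.47 where replicates 2 and 3 reached 1085 and 758.7, while the control lay between 0 and 1.653 (log2 change 7.77 with SE 1.18, limma adjusted p = 0.00431). MLOC_58639 had 1756, 1135 and 1804 in line 5.8, and its control libraries spread from 0 over 14.88 to 49.58 (log2 change 7.37 with SE 0.90, limma adjusted p = 0.00059). In line 17_10 it lay between 1416 and 1678, and between the lines the adjusted p was 0.996 in the limma fit. At stage 59 the control was no longer near silence, at 267.1 ± 74.73 (SD, n = 3). Line 5.8 stood at 1737, 1534 and 1618 there, without overlap with the control's 273.8, 338.2 and 189.2. This difference of 2.64 log2 units did not pass the limma threshold (adjusted p = 0.216), in a fit that shares the spread over both stages.

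The other 7 of the 12 largest rises were high in line 5.8 and at 14.33 normalized counts or less in every control and line 17_10 library of stage 49. MLOC_35134 had 293.9, 499.3 and 326.3 in line 5.8, with 0 reads in all 3 control libraries and all 3 libraries of line 17_10 at stage 49. It was at least 147-fold above the control floor (limma adjusted p = 1.5e-08). MLOC_75680 had 212.9, 285.4 and 138.3, again with 0 reads in the 6 other libraries of the stage, and was at least 83.4-fold higher (limma adjusted p = 3.09e-07). These features held reads in each line 5.8 library and none elsewhere at stage 49.

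MLOC_497 was the steadiest and the highest of this kind, with 1324, 1395 and 1332 in line 5.8, 2.418 to 3.918 in the control and 0.9565 to 6.749 in line 17_10 (log2 change 8.41 with SE 0.71, limma adjusted p = 1.1e-05). MLOC_28102 had 706, 1017 and 721.5 in line 5.8 against 1.102 to 6.046 in the control (log2 change 7.46 with SE 0.57, limma adjusted p = 3.75e-06). MLOC_31213 had 209.2, 347.3 and 211.2, and its control level rested on 2 reads, which gave a ratio of means of 436 with a 95% exact Poisson interval from 121 to 3600. In none of these 3 did a line 17_10 library at stage 49 exceed 6.749.

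MLOC_81998 stood at 133.2, 144 and 155.8 in line 5.8 and at 0 to 2.204 in the control (log2 change 6.34 with SE 0.91, limma adjusted p = 0.00248). MLOC_68464 stood at 338.7, 926.1 and 675.1 against 1.209 to 14.33 (log2 change 6.30 with SE 0.93, limma adjusted p = 0.00331). Line 17_10 kept to 0 to 1.69 for the first and 4.783 to 11.83 for the second. Both differed between the lines in the limma fit, with adjusted p of 0.00184 and 0.00351.

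**Figure D2:**
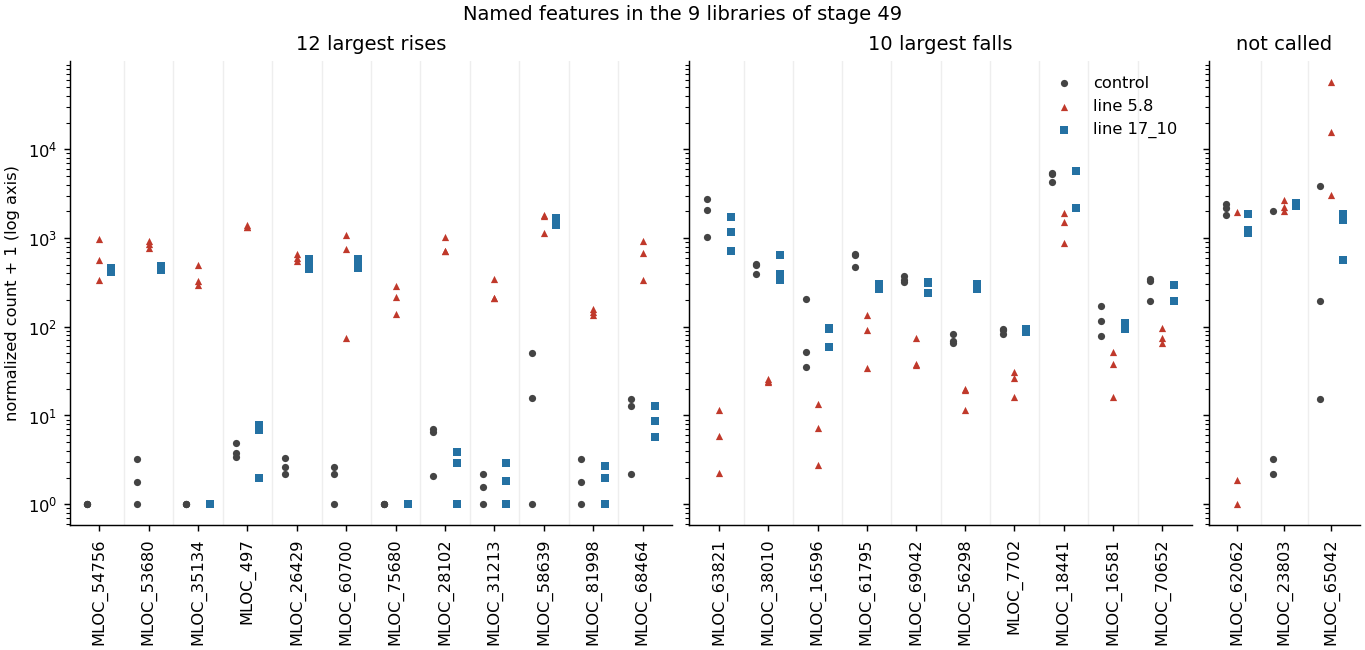
Normalized count + 1 (log axis) of named features in the 9 libraries of stage 49, with 1 point per library: control circles, line 5.8 triangles and line 17_10 squares. Among the 12 largest rises, line 17_10 lies with line 5.8 in 5 features and with the control in 7, and the right panel holds 3 large differences that were not called.

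A further 3 features with no control read stayed low in line 5.8. MLOC_35517 had 23.66, 37.11 and 34.39 normalized counts there (at least 12.5-fold; limma adjusted p = 0.0076), MLOC_749 had 13.7, 36.23 and 16.84 (at least 8.75-fold; limma adjusted p = 6.53e-05), and MLOC_79993 had 29.88, 12.37 and 29.48 (at least 9.4-fold; limma adjusted p = 0.0237). The first did not pass in either count model (adjusted p = 0.264 by edgeR and 0.201 by DESeq2), and the last did not pass in edgeR (adjusted p = 0.119). No feature showed the reverse, with 0 reads in line 5.8 and at least 10 normalized counts in every control library.

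Taking all 60 higher features, 36 had a control mean below 10 normalized counts. Their means in line 5.8 ran from 18.83 to 1350 with a median of 67.7. In line 17_10 at stage 49, 28 of the 36 were below 10 as well and 8 were at 10 or more. The 36 were chosen for low control and higher line 5.8 counts. A share over all features was not taken, so these counts only describe them. Across all 18 libraries, 12 of the 60 lay under 10 in each of the 12 libraries of control and line 17_10 and at 10 or more in each of the 6 of line 5.8, and 13 of all 19505 features had that pattern. The stage 49 libraries that gave the calls take part in this count. Besides those already described, it held MLOC_80629, MLOC_24563, MLOC_80344, MLOC_35341, MLOC_47258 and MLOC_2407, at line 5.8 means of 66.88, 78.22, 78.58, 62.26, 37.57 and 53.03 at stage 49. The pattern of silence in the control and presence in both lines, by the same limits, was found in 5 of all 19505 features and in 3 of the 60, MLOC_54756, MLOC_53680 and MLOC_57202, the last at means of 22.83 in line 5.8 and 24.99 in line 17_10.

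The remaining 24 higher features were already present in the control, at means of 10 or more, and rose by 0.64 to 7.37 on the log2 scale with a median of 2.53. The 3 with the highest level were MLOC_53531, MLOC_5839 and MLOC_36712. MLOC_53531 had 3652, 3481 and 3301 in line 5.8 against 2161, 2144 and 2409 in the control, a small but even rise (log2 change 0.64 with SE 0.09, limma adjusted p = 0.00152). MLOC_5839 had 3125, 3273 and 2962 against 1644, 1090 and 1505 (log2 change 1.16 with SE 0.12, limma adjusted p = 0.000134). In both, line 17_10 lay at control level, with means of 2139 and 1450, and differed from line 5.8 (limma adjusted p = 0.000383 and 0.000161).

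MLOC_36712 passed by the narrowest margin, with a limma adjusted p that rounds to 0.05. It had 1702, 1792 and 1346 in line 5.8 against 454, 665.3 and 325.3 in the control (log2 change 1.79 with SE 0.37). The call was lost in 12 of the 18 fits that left out 1 library, with adjusted p from 0.0616 to 0.326, and 5 of the 6 compared libraries were among those needed, all but control replicate 2. It was also lost in edgeR (adjusted p = 0.0969). At stage 59, whose libraries entered the call through the shared estimate of spread, the feature was higher in line 5.8 at 475.1, 580.9 and 1225 against 113.1, 80.9 and 82.37 (limma adjusted p = 0.000737).

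Of the 23 lower features, MLOC_63821 fell by far the most. It had 1.245, 10.6 and 4.913 normalized counts in line 5.8 against 2061, 1019 and 2725 in the control (log2 change -8.38 with SE 0.51, limma adjusted p = 3.09e-07). Line 17_10 kept it at 1168, 713.1 and 1719, all above the highest line 5.8 library, and the lines differed (limma adjusted p = 3.7e-07). MLOC_38010 stood at 24.9, 22.97 and 23.16 in line 5.8 against 489.9, 509.4 and 396.6 (log2 change -4.23 with SE 0.32, limma adjusted p = 3.75e-06), with 336.7 to 636.4 in line 17_10.

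The falls that followed were smaller in log2 change. MLOC_16596 had 12.45, 1.767 and 6.316 in line 5.8 against 51.24, 34.48 and 204.3 in the control (log2 change -3.48 with SE 0.58, limma adjusted p = 0.00978). MLOC_61795 had 135.7, 33.58 and 91.94 against 666.7, 468.6 and 639.6 (log2 change -2.95 with SE 0.38, limma adjusted p = 0.000826), and line 17_10 lay between the groups at 266.9 to 305.8. MLOC_69042 had 73.47, 37.11 and 36.49 against 332.8, 370.7 and 320.4 (log2 change -2.85 with SE 0.25, limma adjusted p = 1.29e-05). In all 3 the lowest control library stood above the highest line 5.8 library, as the rule that named them required.

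Among the still smaller falls, MLOC_7702 and MLOC_56689 were even across the control libraries and less so in line 5.8. MLOC_7702 had 29.88, 15.02 and 25.27 in line 5.8 against 82.1, 90.9 and 93.11 (log2 change -1.93 with SE 0.24, limma adjusted p = 0.00059). MLOC_56689 had 722.2, 463 and 590.2 against 1465, 1440 and 1514 (log2 change -1.34 with SE 0.17, limma adjusted p = 0.00062), and stayed lower at stage 59 at 662.2 to 874.2 against 1909 to 1995 (limma adjusted p = 0.00039). MLOC_18441 was the most abundant of the lower features, at 874.1, 1507 and 1899 against 5316, 4260 and 5444 (log2 change -1.87 with SE 0.32, limma adjusted p = 0.00985).

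MLOC_56298 had 18.68, 18.56 and 10.53 in line 5.8 against 67.22, 82.28 and 64.09 (log2 change -2.13 with SE 0.40, limma adjusted p = 0.0234). It differed from the other falls in line 17_10, where it lay above the control, at 264 to 300.8. MLOC_16581 had 51.05, 15.02 and 37.2 against 116.3, 77.58 and 168.1 (log2 change -1.87 with SE 0.38, limma adjusted p = 0.0453), and MLOC_70652 had 95.88, 73.34 and 65.27 against 340, 194.3 and 330.1 (log2 change -1.84 with SE 0.31, limma adjusted p = 0.00985).

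These last calls hung on single libraries. Without control replicate 1 or 3, the adjusted p of the limma fit rose to 0.058 and 0.0643 for MLOC_18441, to 0.0735 and 0.0721 for MLOC_70652, to 0.0907 and 0.0794 for MLOC_56298, and to 0.186 and 0.31 for MLOC_16581. MLOC_56298 also lost its call without line 5.8 replicate 3 (adjusted p = 0.0782). MLOC_16581 lost it without line 5.8 replicate 2 (0.121) or 3 (0.0591) and in 15 of the 18 such fits in all, from 0.0528 to 0.31, as well as in edgeR (adjusted p = 0.0561).

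Of the 23 lower features, 6 had a line 5.8 mean below 10, from control means between 17.31 and 1935. In 22 of the 23, all 3 line 17_10 libraries of stage 49 lay above all 3 of line 5.8, and in 19 the line 17_10 and control libraries overlapped. The 23 were chosen for low values in these same line 5.8 libraries. Shares over all features were not taken, so both counts only describe them. The direct test between the lines shares the line 5.8 libraries of stage 49, so its counts only describe the features. It called 84 of all features (0.431%, limma adjusted p below 0.05), 0.308% higher in line 5.8 and 0.123% lower, and among them were 35 of the 60 higher features and 15 of the 23 lower ones, in the same directions.

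The libraries of stage 59 hold other spikes, and they entered the choice of the features only through the shared estimate of spread. Of the 60 higher features, 35 (58.3%) were also called higher at stage 59 (limma adjusted p below 0.05), against 0.231% of all features. Of the 23 lower ones, 5 (21.7%) were also called lower there, against 0.0513% of all features. The sign at stage 59 was the same in 56 of the 60 and 23 of the 23, against 53.6% of all features. Line 5.8 and control libraries did not overlap at stage 59 in 52 of the 60 and 16 of the 23, in the direction of stage 49, where 8.54% of all features were higher without overlap and 7.48% lower. Both stages drew on 1 estimate of spread per feature. With a fit of the compared groups alone at each stage, 15 features were called in the same direction at both stages in place of 40.

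**Figure D3:**
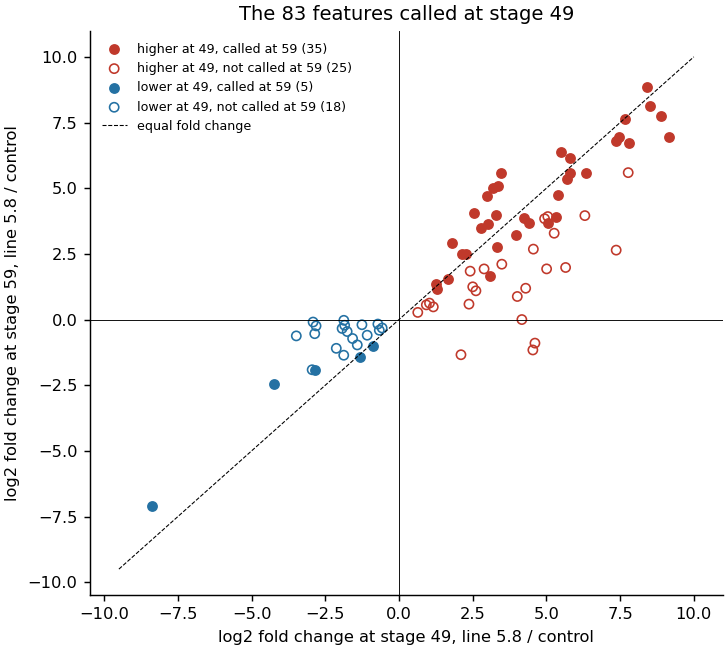
Log2 fold change of line 5.8 over control at stage 59 (vertical axis) against that at stage 49 (horizontal axis) for the 83 features called at stage 49. Filled points were also called at stage 59 (35 of the higher, 5 of the lower), open points were not, and the dashed line marks equal change. The higher features have a median of 3.38 log2 units at stage 59, and the lower ones, all below 0, a median of -0.60.

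The median log2 fold change of the 60 higher features was 3.38 at stage 59, and that of the 23 lower ones was -0.60. Of the 36 higher features with a control mean below 10 at stage 49, 29 had a control mean below 10 at stage 59 too, and 25 of these were at 10 or more in line 5.8. The matching shares over all features were not taken. MLOC_497 had 1372, 1540 and 1811 in line 5.8 at stage 59 against 0.7691 to 6.631 in the control, and MLOC_35134 had 432.5, 223 and 217.6 against 0 reads. MLOC_63821 was again lost, at 25.01, 44.95 and 33.96 against 4605 to 4983. By contrast MLOC_16581, lower at stage 49, stood at 523.8 ± 160.5 in line 5.8 against 526.2 ± 103.5 in control spikes of stage 59 (SD, n = 3). MLOC_7702 had 279.4 ± 19.05 and 356 ± 55.5, with no overlap between the libraries but no pass in the limma fit (adjusted p = 0.51).

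The 4 higher features without the same sign at stage 59 were MLOC_20041, MLOC_79993, MLOC_7013 and MLOC_68931. MLOC_79993, without a control read at stage 49, had 163.8, 383.3 and 297.8 in the control at stage 59. Line 5.8 had 193.3, 93.36 and 91.82 there (limma adjusted p = 0.529). MLOC_20041 had 51.05, 30.93 and 12.63 in line 5.8 at stage 49 against 1 control read, a ratio of means of 172 with a 95% exact Poisson interval from 30.8 to 6780, and 78.44 to 91.24 in line 17_10. At stage 59 it had 0 reads in line 5.8 and 0 to 2.652 normalized counts in the control. MLOC_7013 had 16.19, 74.23 and 28.07 against 0, 5.485 and 0 at stage 49, and no read in any library of stage 59. MLOC_68931 stood at 14.94, 21.21 and 20.35 in line 5.8 against 3.306, 5.485 and 2.418 in the control at stage 49. At stage 59 its line 5.8 values were the lower ones, at 61.5, 25.93 and 27.67 against 88.45, 75.6 and 113.2. That difference did not pass in the limma fit (adjusted p = 0.194).

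The difference between the stages was tested itself, as the interaction of stage and genotype. It passed for 0 of 19505 features by limma (unadjusted p below 0.05 in 2131) and for 0 by edgeR, and DESeq2 called 47. By limma it passed for 132 features without line 5.8 replicate 1 of stage 59, for 13 without control replicate 3 of stage 59, and for 132 with the replicate block. The adjusted interaction p in the limma fit was 0.182 for both MLOC_68931 and MLOC_20041 and 0.451 for MLOC_79993, so none of these changes of side is shown. Some of these stage 49 calls were lost when 1 library was left out. MLOC_7013 did not pass in edgeR (adjusted p = 0.265) or DESeq2 (adjusted p = 0.25), and in the limma fit it had an adjusted p of 0.0735 without control replicate 1, 0.073 without control replicate 3 and 0.0696 without line 5.8 replicate 2. MLOC_79993 had a limma adjusted p of 0.103 without control replicate 1 or 3, 0.0944 without line 5.8 replicate 1 and 0.0725 without replicate 3. The call of MLOC_68931 needed each of the 6 compared libraries except control replicate 2, with adjusted p up to 0.212.

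Large differences were often not called. Of the features that differed at least 4-fold, 344 higher and 213 lower, 496 did not pass the threshold and 11% did. In the 3 largest of these, libraries of the same group stood far apart. MLOC_62062 had 0, 0.8836 and 1953 normalized counts in replicates 1 to 3 of line 5.8, against 2180, 2406 and 1810 in the control (log2 change -7.10 with SE 1.93, limma adjusted p = 0.218). Replicate 3 alone lay at control level, and without it the adjusted p was 3.35e-06. At stage 59 all 3 line 5.8 libraries lay between 0 and 8.645, against 267.9 to 371.1 in the control. That difference did not pass in the limma fit either (adjusted p = 0.175), which shares the spread over both stages.

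MLOC_23803 showed the same kind of split within the control, at 2.204, 1990 and 1.209 in replicates 1 to 3, against 2003 to 2689 in line 5.8 and 2295 to 2494 in line 17_10 (log2 change 6.57 with SE 2.18, limma adjusted p = 0.28). Control replicate 2 was also the high library at stage 59, at 2614 against 21.54 and 4.526. Without control replicate 2 of stage 49 the adjusted p was 0.00886. MLOC_65042 spread in both groups, from 14.51 to 3880 in the control and from 3073 to 56980 in line 5.8 (log2 change 5.95 with SE 1.65, limma adjusted p = 0.225), and the adjusted p was 0.0149 without control replicate 2. With the replicate block, MLOC_62062 and MLOC_65042 passed (limma adjusted p = 0.0162 and 0.0147) and MLOC_23803 did not (0.0563).

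The share of calls differed with the level. Among features whose higher group averaged 1000 to 5000 normalized counts, the median SE of the log2 fold change was 0.16 and the median size of the change 0.19, and 0.145% were called. Among those under 50, the median SE was 0.63, the median size 0.51, and 0.902% were called. The 2951 features over 5000 held a single call, MLOC_18441. The 3 most abundant features did not differ beyond their spread. MLOC_64679 stood at 644000 ± 227200 in line 5.8 against 832300 ± 354700 in control spikes (SD, n = 3; 95% interval of the log2 fold change -1.32 to 0.63). MLOC_69930 stood at 405800 ± 134000 and 412000 ± 44170 (interval -0.80 to 0.65), and MLOC_64900 at 328800 ± 191700 and 380000 ± 56160 (interval -1.49 to 0.57). All 3 were lowest in replicate 2 of line 5.8.

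Stage 49 spans a period of fast development, so the libraries were also read for how far heading had gone. The features of heading were taken from line 17_10 alone, as those changed at least 4-fold between stages 49 and 59 (limma, adjusted p below 0.05), which gave 782 rising (4.01%) and 2081 falling (10.7%) of the 19505. The rising set took 0.653, 0.464 and 0.887% of the normalized counts in control replicates 1 to 3 at stage 49 and 0.551, 0.331 and 0.615% in line 5.8. At stage 59 it took 5.90 ± 0.834% in line 5.8 against 7.08 ± 0.85% in control spikes (SD, n = 3). The falling set took 13, 14.3 and 11% in the control and 14.7, 11.5 and 14.3% in line 5.8 at stage 49. The groups overlapped in both sets, and replicate 2 held the lowest rising share in each group. Between libraries of the same number, the rising share was lower in line 5.8 in all 3 pairs, and the falling share was higher in replicates 1 and 3 and lower in replicate 2. The labels state no such pairing, and these shares were not tested.

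**Figure D4:**
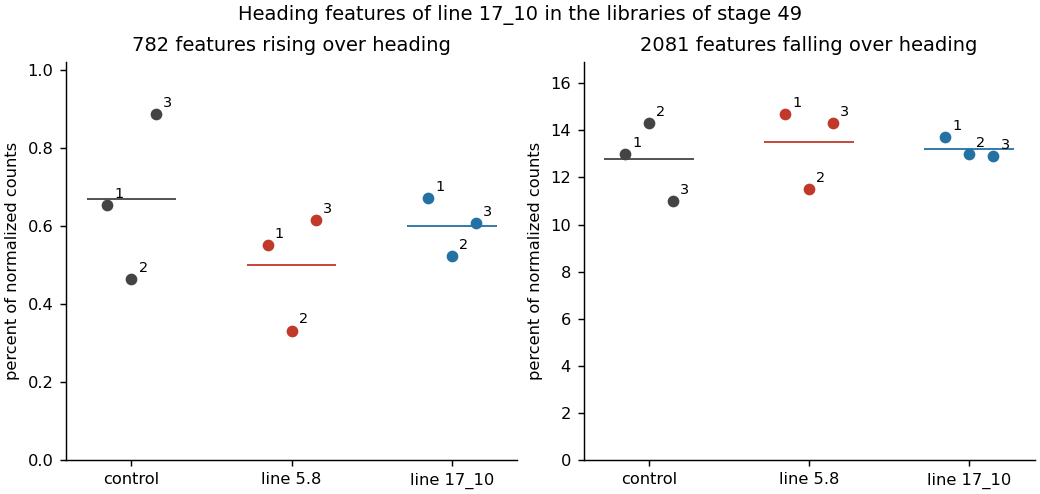
Share of normalized counts (percent, vertical axes from 0) taken by the 782 rising and 2081 falling heading features of line 17_10 in each library of stage 49, numbered by replicate, with group means as lines. Line 17_10 chose the sets, so its points are no comparison. Line 5.8 and control overlap in both panels, and replicate 2 is lowest in the rising set in both.

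Feature by feature, the medians of the sets lay on opposite sides of 0 at stage 49. In the rising set the median log2 fold change was -0.50, with 30.2% of the 782 features higher in line 5.8, and in the falling set it was 0.30, with 63.3% higher, against 0.00 and 49.5% over all features. These medians moved with single libraries. The rising median was -0.22 without control replicate 3 and -0.09 without line 5.8 replicate 2, and the falling median was 0.13 without control replicate 3 and 0.55 without control replicate 2. Of the called features, 11 of 60 higher (18.3%) and 8 of 23 lower (34.8%) belonged to the rising set, against 4.01% of all features. The falling set held 1 of 60 and 0 of 23, against 10.7% of all features. These counts were not matched for level, with which the share of calls differed. None of those 8 lower features passed at stage 59. The part of developmental state in the calls was not tested.

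**Figure D5:**
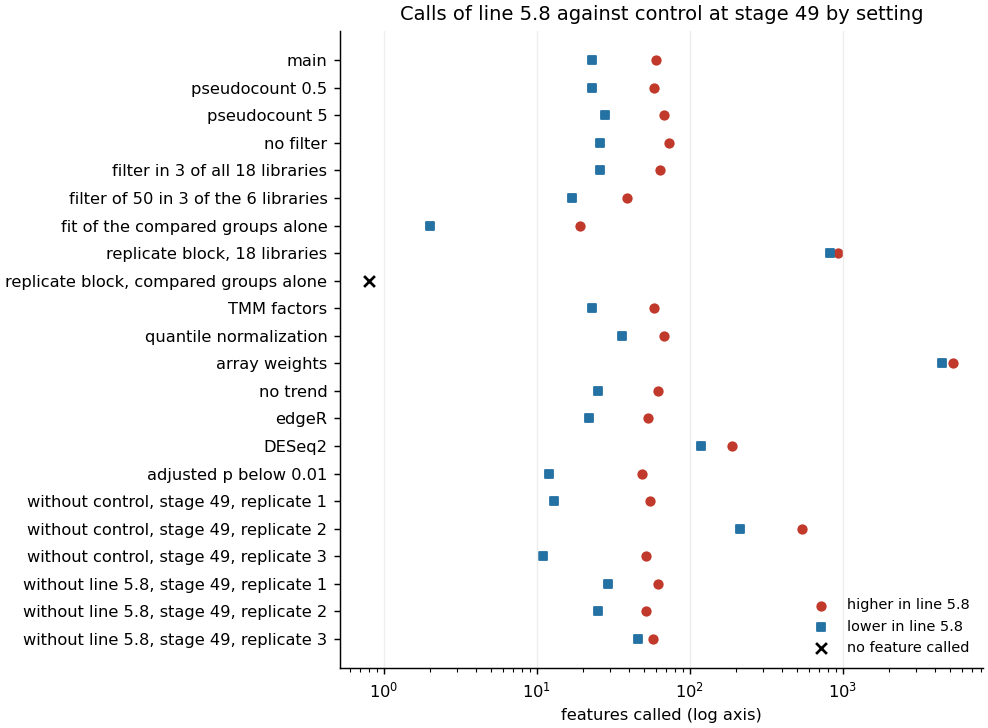
Number of features called higher (red circles) and lower (blue squares) in line 5.8 against control at stage 49 (horizontal log axis) under each setting, with all 18 libraries in the fit unless stated. A cross marks the setting that called no feature. Most settings lie near the 60 and 23 of the first row. The fit of the compared groups alone falls below it, and DESeq2, the replicate block with 18 libraries, array weights and the fit without control replicate 2 lie above it.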

How the data were processed

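The authors deposited a normalized signal: per the labels, gene counts divided by the size factors of DESeq. STAR 2.4.2a, Subread 1.5.2 and DESeq2 are named by the submitters' processing notes. Build, annotation and strand setting: not given in the sources used here. How the counting treated near-identical or overlapping genes is likewise unknown. Every value (100%) was a whole multiple of 1 read (tolerance 0.001 reads), which gave back the reads.

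Values were tested as log2(normalized count + 1), which understates changes of low features, in 1 limma fit (limma 3.58.1, R 4.3.3) of 18 libraries and 6 group means with a mean-variance trend, two-sided, with Benjamini-Hochberg adjustment over 19505 features. DESeq2 1.42.0 and edgeR 4.0.16 on recovered reads were alternatives. ± is an SD over 3 libraries. Floors of 3 reads per library and Poisson intervals cover counting error only. The chi-square per feature between replicates was at least 45.7, so none was a copy. Replicate numbers paired the compared groups by the correlations given with the calls, from the data and not the labels.

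Features and settings were chosen with earlier results of these data known. Named were the 12 largest rises and 10 largest falls among called features with no overlap and a mean of at least 50, the 3 most abundant in each direction, up to 6 at 0 reads in 1 group, the 3 largest differences not called, the 3 most abundant features, those called under every setting (none), and up to 4 with another sign at stage 59. Features named for their pattern over 18 libraries were chosen after their values were seen, as was leaving out libraries for the heading medians.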

Additional observations from a re-analysis of the deposited data

How the results depend on the processing

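The 32 named called features kept their direction in each of the 33 alternatives that tested them, and 24 kept their call in each of the 18 fits that left out 1 library; 20 lost it in the compared groups alone and 32 with the replicate block there. For line 5.8 against control at stage 49 the count of 83 was 21 in the compared groups alone, 1759 with the replicate block in 18 libraries, 0 with the replicate block in the compared groups alone, 308 by DESeq2 and 9779 with array weights; leaving out 1 library gave 63 to 756. For both stages the count of 40 was 15 alone, 0 with the block alone, 84 by DESeq2 and 3016 with array weights, and 33 to 58 with 1 library left out. For the interaction the count of 0 was 132 with the block in 18 libraries, 47 by DESeq2 and 8214 with array weights, and 0 to 132 with 1 library left out; 132 came without line 5.8 stage 59 replicate 1 and 13 without control stage 59 replicate 3. Between the lines the count of 84 was 38 alone, 0 with the block alone, 354 by DESeq2 and 5624 with array weights, and 63 to 126 with 1 library left out. The estimate of array weights stopped before it converged, with weights from 0.0847 to 83.9, so those counts are not comparable. With the block in 18 libraries the count for both stages was 44, with 39 of the 40 among them. The count between the lines was 89, with 80 of the 84. Among named features that block changed 2 calls at stage 49, those of MLOC_62062 and MLOC_65042. Same-numbered libraries did not pair at stage 59 or between the lines. The share of higher calls, 72.3%, was 55.3% without line 5.8 replicate 3 and 53% with the block in 18 libraries. It was 61.7% by DESeq2 and 90.5% alone. Between the lines it was 71.4%, against 52.4% without line 5.8 replicate 3, 60.3% after quantile normalization, 63.8% by DESeq2 and 86.8% alone. Leaving out 1 library, the rising heading share ran from 0.439 to 0.655% in line 5.8 and 0.558 to 0.798% in the control, and the falling share from 11.6 to 14.7% and 10.6 to 13.9%. The heading sets came from line 17_10 alone from the start, so that alternative gave no further value.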

Other observations

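Features that switched between replicates of a group fell unevenly among its libraries. In line 5.8 at stage 49, 127 features reached 50 normalized counts in a library and differed at least 64-fold between the highest and lowest library, on normalized count + 1. In 100 of them replicate 2 lay at least 8-fold below both others, in 13 replicate 2 lay as far above, and in 12 replicate 1 lay as far below. In the control 37 features did so, and in 34 of them replicate 2 lay at least 8-fold above both others. MLOC_23803 is 1 of these, with its single high library again numbered 2 at stage 59.

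The called features took a small part of the transcripts. The 60 higher ones held 0.0422 ± 0.00312% of the normalized counts of line 5.8 at stage 49, against 0.0105 ± 0.000122% for the control and 0.0207 ± 0.00136% for line 17_10 (SD, n = 3). The 23 lower ones held 0.00975 ± 0.000938% for line 5.8, against 0.0289 ± 0.00374% for the control and 0.0256 ± 0.00379% for line 17_10. Since the calls chose these features from the control and line 5.8, those 2 values describe them and test nothing.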
